A study of Mus musculus and Homo sapiens with 22 samples.

Results

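The 4 libraries compared here were solvent controls of the line labelled 4T1, and they came as pairs of count tables with different file naming. DMSO 3 and DMSO 4 (4T1_DMSO_3_2 and 4T1_DMSO_4_2) were set against DMSO 1 and DMSO 2 (4T1_DMSO_1 and 4T1_DMSO_2), so the 4 members were 4 of the 12 libraries labelled 4T1 and of the 22 in the series. Libraries were assigned by title and table name only, and the raw counts of autosomal genes were compared: 34850 of the 38924 gene IDs in the tables lay on autosomes, and 13499 of these had enough reads to be tested. 4T1 is a line from a mammary tumour of a BALB/c mouse. All 4 cultures received only DMSO, the solvent of the series' 2 compounds, ENMD-2076 and TAK901. They were plated 24 h before a further 24 h of exposure, RNA was isolated with TRIzol, and sequencing was done on an Illumina HiSeq instrument from NEBNext Ultra libraries. The labels give no passage, culture date or source for either pair, and do not say whether the libraries of a pair came from separate wells. Each p-value therefore sets the difference between the pairs against the spread between libraries of a pair, which may be technical. If the libraries of a pair shared a culture, the p-values do not cover variation between cultures.

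A cell line keeps a set of transcription factors from the tissue it arose in. Hnf4a, Cdx2, Pdx1 and Hhex belong to endoderm: Hnf4a is a nuclear receptor of liver and gut epithelium, Cdx2 a homeobox factor of the intestine, Pdx1 a homeobox factor of pancreas and duodenum, and Hhex a homeobox factor of the early liver and foregut. Mammary epithelium instead relies on factors such as Gata3 and Elf5, and keratins 8 and 18 are shared by most simple epithelia. Processed pseudogenes are DNA copies of spliced mRNAs, so a short read from a gene such as a ribosomal protein gene can be given to the gene or to its copy, depending on how reads are aligned and counted.

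Gene counts summed to 22.1 and 24.8 M reads in DMSO 3 and 4, against 18.6 and 17.2 M in DMSO 1 and 2. The libraries of a pair were close to each other: the chi-square per degree of freedom was 3.32 between DMSO 3 and 4, 4.37 between DMSO 1 and 2, and 214 to 223 across the pairs, so no library was a copy of another. Outside the autosomal comparison, 4 genes of the Y chromosome (Uty, Kdm5d, Eif2s3y and Ddx3y) summed to 5941 and 6681 reads in DMSO 3 and 4, against 0 and 0 in DMSO 1 and 2.

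The pairs differed across most of the transcriptome, and the difference was lopsided at its extremes. Of the 13499 autosomal genes tested, 5406 (40.0%) were higher and 4584 (34.0%) lower in DMSO 3 and 4 than in DMSO 1 and 2 (edgeR quasi-likelihood test, Benjamini-Hochberg adjusted p under 0.05). The median log2 fold change (DMSO 3 and 4 over DMSO 1 and 2) was 0.07 over all autosomal genes tested and 0.02 over the 11971 protein-coding ones. Because naming set and group are the same here, culture, library batch, sequencing run and read counting cannot be told apart as sources of these differences, and in bulk RNA fewer cells of a type cannot be told apart from less RNA per cell.

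A gene was called present only in DMSO 3 and 4 if it had at most 3 reads in DMSO 1 and 2 together and at least 1 CPM (counts per 1 M reads, scaled by TMM) in both DMSO 3 and DMSO 4. By this rule 648 autosomal genes (4.80% of those tested) were present only in DMSO 3 and 4, of which 443 were protein-coding and 439 had no read at all in the other pair. The reverse held for 9 genes (0.0667%), of which 5 were protein-coding, and the highest of these had 7.63 CPM. Leaving out DMSO 3, DMSO 4 or DMSO 1 moved the count of 9 to 25, 22 and 14, and asking for 5 CPM instead of 1 moved the counts to 270 and 1. The 648 genes took 0.928 to 0.942% of the CPM in DMSO 3 and 4. Among abundant protein-coding genes the same lopsidedness held: of 7314 genes with at least 20 CPM in DMSO 1 and 2, 15 were more than 10-fold and 0 more than 100-fold lower in DMSO 3 and 4. Of 7459 genes with at least 20 CPM in DMSO 3 and 4, 232 were more than 10-fold and 137 more than 100-fold lower in DMSO 1 and 2.

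**Figure D1:**
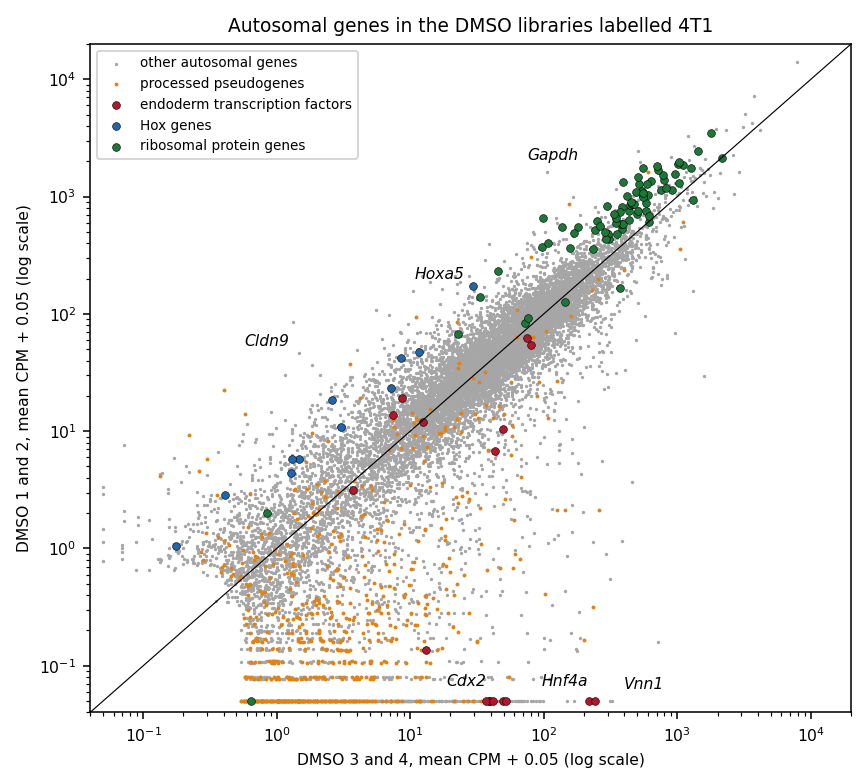
Mean CPM + 0.05 of each autosomal gene tested in DMSO 3 and 4 (x axis) and in DMSO 1 and 2 (y axis), both on log scales, with a line of equal level. Genes without reads in DMSO 1 and 2 form the row at the bottom, which holds Hnf4a at 217 CPM and Vnn1 at 322 CPM in DMSO 3 and 4, while no comparable column of abundant genes stands at the left edge.

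The endoderm markers were present in DMSO 3 and 4 and had no read in DMSO 1 and 2. Hnf4a (ENSMUSG00000017950.10, chromosome 2, 163506808 to 163572910, GRCm38) had 5034 and 5464 reads in DMSO 3 and 4, or 221 and 213 CPM, against 0 and 0 reads in DMSO 1 and 2. Cdx2 (chromosome 5) had 880 and 1007 reads in DMSO 3 and 4, against 0 and 0 in DMSO 1 and 2. Pdx1, also on chromosome 5, had 881 and 1036 reads in DMSO 3 and 4, against 0 and 0 in DMSO 1 and 2. Hhex (chromosome 19) had 827 and 946 reads, against 0 and 0. The 2 libraries of DMSO 3 and 4 stood close together for each of the 4. Set against a floor of 3 reads for DMSO 1 and 2 together, which covers counting error only, Hnf4a was at least 2493-fold higher, Cdx2 at least 448-fold, Pdx1 at least 455-fold and Hhex at least 421-fold. These genes entered the test only through DMSO 3 and 4, so no p-value is given for them.

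Promoter sequence upstream of the start site, from RefSeq on GRCm38.p6, is shown for 2 genes higher in DMSO 3 and 4. They were chosen because their windows held a motif of nuclear receptors. Hnf4a is a nuclear receptor, and whether it acts at these windows was not tested. The letters searched, on both strands of the 250 bases before each start, were CAAAGTC (HNF4 core) and AGGTCA (nuclear receptor motif). Capitals mark each match, and each stretch is the last 120 bases before the start, 5′ to 3′ on the gene's strand. Lgals2, a gut galectin, is shown from chr15:78855530-78855649 (minus strand), and Krt20, a keratin of gut epithelium, from chr11:99438154-99438273 (minus strand).
Lgals2: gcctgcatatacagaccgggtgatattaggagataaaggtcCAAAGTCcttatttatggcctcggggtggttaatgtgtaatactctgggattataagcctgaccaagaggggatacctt
Krt20: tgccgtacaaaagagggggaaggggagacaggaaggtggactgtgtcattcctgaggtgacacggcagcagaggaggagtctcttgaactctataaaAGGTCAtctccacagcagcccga

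Lgals2 held the HNF4 core 79 bases before its start, and Krt20 held the nuclear receptor motif 23 bases before its start. Among the 313 protein-coding genes present only in DMSO 3 and 4 that had a promoter entry, 6.71% held the HNF4 core and 16.6% the nuclear receptor motif. Over the 9411 tested protein-coding genes with an entry the shares were 3.87 and 12.8%, and over all 27025 genes with an entry 4.33 and 15.8%. Neither motif was found in the windows of Hnf4a, Cdx2, Pdx1 and Hhex. These shares are descriptions of letters, and genes with several promoters had more sequence to match.

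Among 47 endoderm transcription factors, all autosomal, 16 had no read in any library and 17 had enough to be tested. In DMSO 3 and 4, 13 of the 17 were higher, 2 lower, and 2 did not pass, and 9 were present only in DMSO 3 and 4. Their median log2 fold change was 7.15. Here and for the lists that follow, the shares over all autosomal genes tested were 40.0% higher and 34.0% lower, and 4.80% present only in DMSO 3 and 4. A gene with reads in a single pair enters the test through that pair, so such counts describe the list and test nothing beyond the genes themselves. Onecut2, a cut-homeobox factor of liver and pancreas, had 5281 and 6402 reads in DMSO 3 and 4, against 0 and 0 in DMSO 1 and 2. Foxa2, a forkhead factor that opens endoderm enhancers, had 1173 and 1348 reads, against 0 and 0. Gata6, a zinc-finger factor of early endoderm, had 906 and 1118 reads in DMSO 3 and 4, against 0 and 0. Nr1h4, the bile acid receptor, had 294 and 345 reads in DMSO 3 and 4, against 2 and 1, a ratio of 152 with an exact 95% counting interval of 51.7 to 738.

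Not every endoderm factor followed that pattern. Foxa1, shared by endoderm and hormone-responsive mammary cells, averaged 42.7 ± 1.4 CPM in DMSO 3 and 4 and 6.68 ± 0.91 CPM in DMSO 1 and 2 (SD, n = 2 each), which gave a log2 difference of 2.68 with SE 0.12 and adjusted p = 2.9e-12. Klf4, a factor of differentiated epithelia, averaged 49.4 ± 0.66 and 10.4 ± 0.20 CPM (log2 fold change 2.24). Sox9 and Klf5, found in progenitors of many epithelia, were present in all 4 libraries and differed by 0.57 and 0.27. Gata4 and Eomes, early endoderm factors, were lower in DMSO 3 and 4: Gata4 had 6.84 and 7.97 CPM, against 15.8 and 11.4 CPM, and Eomes 7.54 and 9.76 CPM, against 17.6 and 20.3 CPM. Cdx1, Sox17, Onecut1, Ptf1a, Nkx6-1, Neurog3 and Atoh1, which mark gut, pancreas or secretory lineages, had no read in any of the 4 libraries. Per kilobase of exon, the level in DMSO 3 and 4 of factors present only there was 44.9 CPM for Hnf4a, 21.9 for Foxa2, 18.3 for Pdx1, 17.2 for Cdx2, 14.8 for Onecut2 and 7.22 for Hhex.

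Transcription factors of mammary and ectodermal epithelium leaned the other way, although 1 of them was present only in DMSO 3 and 4. Of 38 autosomal members 25 were tested, of which 7 were higher in DMSO 3 and 4, 14 lower, and 4 did not pass (median log2 fold change -0.39, against 0.07 over all autosomal genes). Gata3, required for luminal mammary cells, had 32.7 and 35.1 CPM in DMSO 3 and 4, against 92.4 and 96.9 CPM in DMSO 1 and 2 (log2 fold change -1.48, SE 0.07, adjusted p = 6.5e-12). Irx2, an Iroquois homeobox factor, had 30.1 and 30.1 CPM in DMSO 3 and 4, against 155 and 159 CPM. Tfap2a, an AP-2 factor of ectoderm, had 18.5 and 18.8 CPM, against 74.1 and 67.8 CPM. All 3 kept at least 422 reads in each library. Bcl11a, Grhl2, Six4, Foxc1 and Ovol1 were also lower in DMSO 3 and 4, with log2 fold changes of -2.76, -1.55, -1.42, -1.34 and -1.46, and Esr1, the oestrogen receptor, differed by -0.75.

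Ehf, an epithelial ETS factor, was the strongest exception among members with at least 10 reads in every library. It had 200 and 192 CPM in DMSO 3 and 4, against 2.49 and 1.51 CPM in DMSO 1 and 2 (log2 fold change 6.59, SE 0.11, edgeR adjusted p = 1.2e-17). Foxq1 and Elf3, epithelial forkhead and ETS factors, were higher by 2.72 and 1.77. Elf5, the alveolar regulator, had 1 and 1 reads in DMSO 3 and 4, against 0 and 0 in DMSO 1 and 2. Trp63, a basal cell factor, had 3 and 7 reads, against 0 and 0, and Pgr, Tfap2b and Msx2 had none in any library. Set against the mammary label, DMSO 3 and 4 thus held reads of endoderm factors beside lower levels of Gata3, Tfap2a, Grhl2 and Irx2. In the same list 7 members, Ehf among them, were higher there. The defining mammary factors Elf5 and Pgr were at or near 0 in both pairs. Which source gave rise to either pair was not tested, and the libraries are called by their numbers here.

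**Figure D2:**
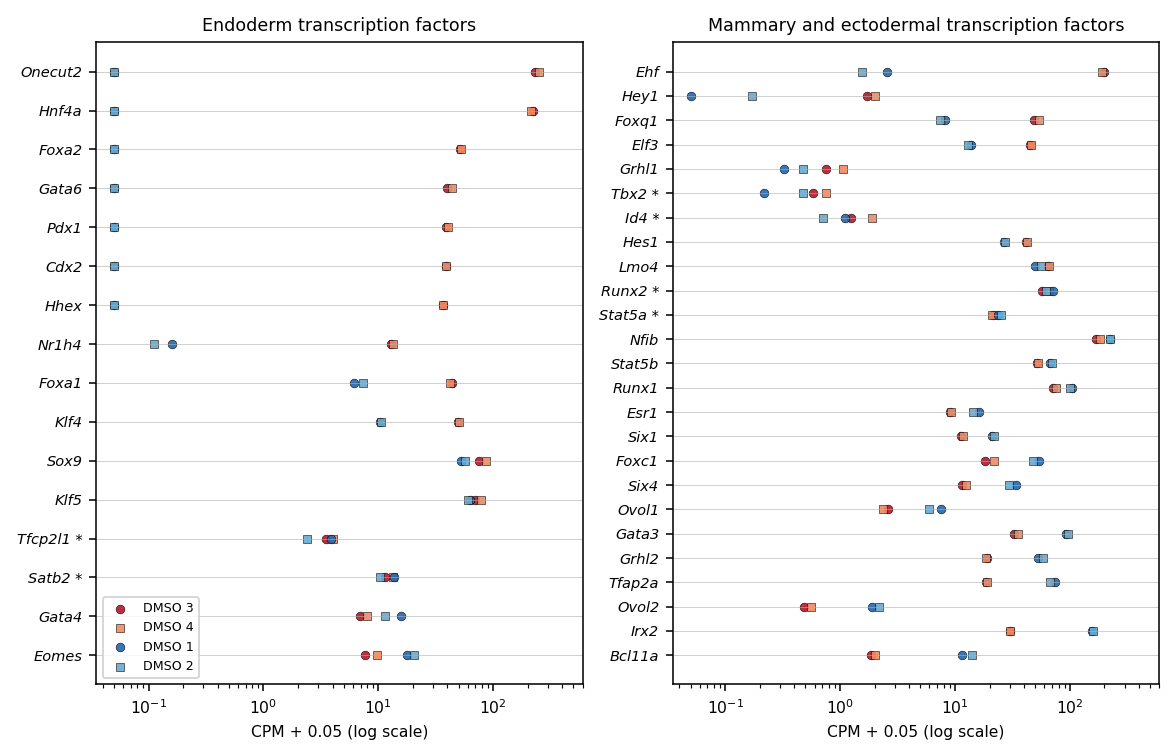
CPM + 0.05 (log scale) of tested endoderm factors (left) and mammary or ectodermal factors (right) in DMSO 3, 4, 1 and 2, ordered by log2 fold change, with * for genes that did not pass the test. Hnf4a, Cdx2, Pdx1, Hhex, Onecut2, Foxa2 and Gata6 have all reads in DMSO 3 and 4 and points at 0 CPM for DMSO 1 and 2, while most mammary factors are present in all 4 libraries.

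The Hox genes, which keep a record of position along the body axis, moved in 1 direction. Of 38 Hox genes, 15 had no read and 11 were tested, and all 11 were lower in DMSO 3 and 4 (median log2 fold change -2.21). Hoxa5 had 30.4 and 28.5 CPM in DMSO 3 and 4, against 175 and 168 CPM in DMSO 1 and 2 (log2 fold change -2.54, SE 0.06, adjusted p = 1.4e-15). Hoxa10 had 7.58 and 9.41 CPM, against 39.5 and 43.9 CPM, and Hoxa2 had 2.54 and 2.57 CPM, against 16.7 and 19.8 CPM. The tested members were 9 genes of the Hoxa cluster on chromosome 6 with Hoxd3 and Hoxd8. With no filter on low counts 1 Hox gene was called higher. Neighbouring Hox genes overlap and have antisense partners, and the strand setting of the counting is not given in the sources used here.

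Of factors of mesenchyme and of the epithelial-mesenchymal transition, 9 of 22 tested were higher in DMSO 3 and 4, 8 lower and 5 did not pass, which is near the 40.0% higher and 34.0% lower of all autosomal genes tested, so the values of single members are given. Zeb1, a repressor of epithelial junction genes, had 46.8 and 47.4 CPM in DMSO 3 and 4, against 0.332 and 0.363 CPM in DMSO 1 and 2. Foxf2, a forkhead factor of gut mesenchyme, had 690 and 800 reads in DMSO 3 and 4, against 0 and 0. Snai2, a relative of Snai1, had 185 and 256 reads, against 0 and 0, and Foxd1 had 181 and 209 reads, against 0 and 0. These 4 were present only or nearly only in DMSO 3 and 4, whereas Foxf1 was lower there, at 0.570 and 0.428 CPM, against 10.1 and 6.41 CPM (log2 fold change -4.05). Osr2, Tbx15 and Mkx were lower by 2.06, 1.57 and 1.41 on the log2 scale. Twist1 had 27.0 and 30.7 CPM, against 30.4 and 33.3 CPM, and Zeb2 had 38.8 and 42.5 CPM, against 36.0 and 38.6 CPM, and neither passed the test. Of structural genes of mesenchyme, 8 of 15 tested were higher and 6 lower, beside the same 40.0 and 34.0% of all genes. Ncam1, a neural and mesenchymal adhesion molecule, had 553 and 680 reads in DMSO 3 and 4, against 0 and 0, and Thbs1, a matrix glycoprotein, had 78.9 and 80.05 CPM, against 372 and 401 CPM. Vim, the mesenchymal intermediate filament, was abundant in all 4 libraries and differed by a log2 fold change of 0.21.

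Keratins differed member by member. Of 54 keratin genes 18 had no read and 19 were tested, with 15 higher in DMSO 3 and 4, 3 lower and 1 not passing, against 40.0% higher and 34.0% lower over all autosomal genes tested (median log2 fold change 3.79, and 3.63 with genes lacking reads in a pair placed at their bound). A filter asking for a mean of 1 CPM left 9 higher. Krt8, a partner of Krt18 in simple epithelia, had 2822 and 2526 CPM in DMSO 3 and 4, against 1041 and 1052 CPM in DMSO 1 and 2 (log2 fold change 1.35, SE 0.06, adjusted p = 1.4e-12). Krt18 had 1427 and 1302 CPM, against 1439 and 1461 CPM (log2 fold change -0.09, adjusted p = 0.15). The partners thus moved unequally, with Krt8 higher in DMSO 3 and 4 and Krt18 not passing the test.

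Krt19, a keratin of ducts and simple epithelia, had 1032 and 870 CPM in DMSO 3 and 4, against 69.9 and 67.7 CPM in DMSO 1 and 2 (log2 fold change 3.79, SE 0.08, adjusted p = 7.1e-17). Krt7, a keratin of glandular ducts, had 169 and 161 CPM, against 974 and 1011 CPM (log2 fold change -2.59, SE 0.05, adjusted p = 9.1e-17). Krt20, a keratin of gut and urothelial surface cells, had 659 and 721 reads in DMSO 3 and 4, against 0 and 0, at least 328-fold higher. Krt19 and Krt7 thus ran in opposite directions, and Krt20, whose promoter letters are printed above, had reads in DMSO 3 and 4 only. Krt23 had 39.1 and 34.97 CPM, against 0.111 and 0.666 CPM. Krt14, a basal keratin, had 11.5 and 9.57 CPM, against 0.665 and 0.303 CPM, while its partner Krt5 had 5 and 4 reads, against 0 and 0. Krt80 was lower in DMSO 3 and 4, with 24.6 and 24.4 CPM, against 39.0 and 41.4 CPM. Per kilobase of exon the order in DMSO 3 and 4 was Krt8 at 1366 CPM, Krt18 at 949, Krt19 at 513 and Krt7 at 23.4 CPM, and in DMSO 1 and 2 it was Krt18 at 1009, Krt8 at 534, Krt7 at 141 and Krt19 at 37.1 CPM.

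**Figure D3:**
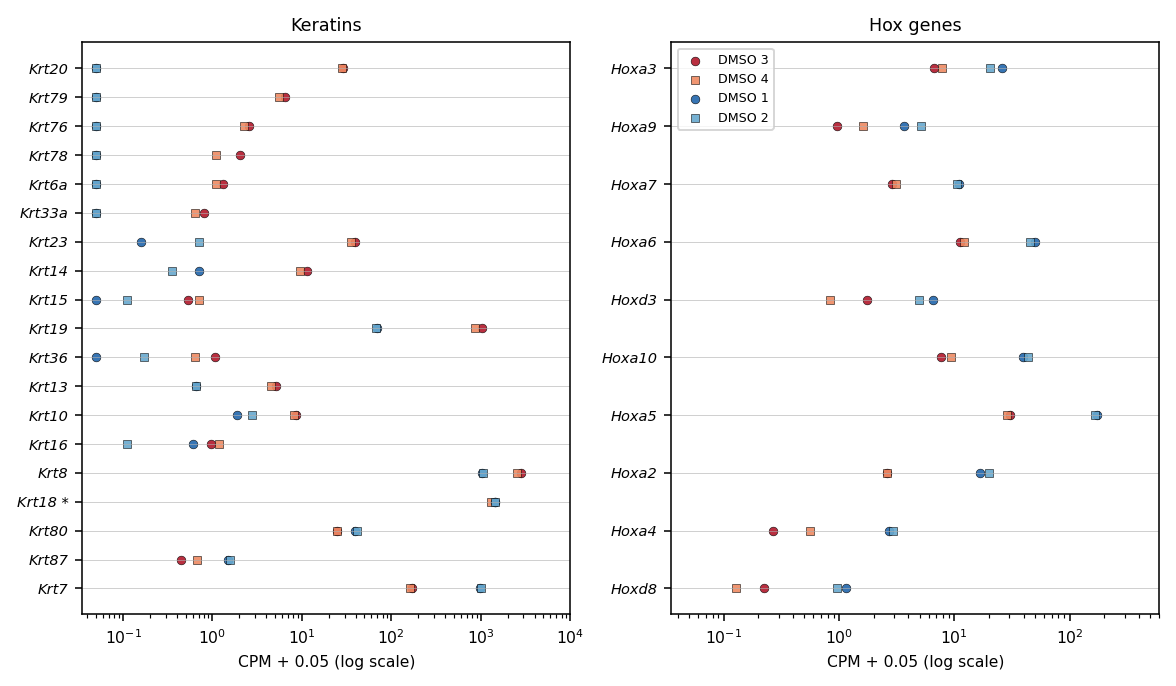
CPM + 0.05 (log scale) of tested keratins (left) and Hox genes (right) in DMSO 3, 4, 1 and 2, ordered by log2 fold change, with * for Krt18, which did not pass. Krt20 and 5 less abundant keratins have points at 0 CPM in DMSO 1 and 2, Krt7 stands at 169 and 161 CPM in DMSO 3 and 4, against 974 and 1011 CPM, and each Hox gene plotted lies lower in DMSO 3 and 4.

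Of 48 autosomal junction genes of epithelia 44 were tested, of which 28 were lower in DMSO 3 and 4, 10 higher and 6 did not pass, beside 34.0% lower and 40.0% higher over all autosomal genes tested (median log2 fold change -0.80, against 0.07). Cldn4, a tight junction claudin, had 39.5 and 38.4 CPM in DMSO 3 and 4, against 390 and 399 CPM in DMSO 1 and 2 (log2 fold change -3.34, SE 0.06, adjusted p = 8.0e-18). Cldn3, its neighbour on chromosome 5, had 16.8 and 17.6 CPM, against 164 and 164 CPM. Cldn9 had 1.67 and 1.17 CPM, against 48.7 and 43.4 CPM, the largest fall among genes with at least 10 reads in every library (log2 fold change -5.03, SE 0.16). Prss8, a membrane protease, was lower by 3.01 on the log2 scale, and Epcam, an epithelial surface molecule named after its values were seen, had 90.7 and 92.0 CPM, against 358 and 364 CPM. In contrast Cldn18, a claudin of stomach and lung, had 66.6 and 68.7 CPM in DMSO 3 and 4, against 0.443 and 0 CPM. Cdh17, the liver-intestine cadherin, had 167 and 161 CPM, against 2.99 and 1.63 CPM (log2 fold change 6.12, SE 0.12). Cdh1, the general epithelial cadherin, differed little, with 588 and 584 CPM, against 421 and 447 CPM (log2 fold change 0.43). Cldn18 and Cdh17 were thus higher and Cldn3, Cldn4 and Cldn9 lower in DMSO 3 and 4.

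Surface and metabolic genes of gut, liver and pancreas were mainly higher in DMSO 3 and 4. Of 49 autosomal members 30 were tested, with 26 higher, 2 lower and 2 not passing, and 11 were present only in DMSO 3 and 4 (median log2 fold change 7.01, or 5.06 at the bounds). Vil1, the actin bundler of the brush border, had 1038 and 989 reads in DMSO 3 and 4, against 0 and 0 in DMSO 1 and 2. Anxa10, an annexin of stomach epithelium, had 1598 and 1702 reads, against 0 and 0. Ceacam1, an adhesion molecule of liver and gut, had 950 and 962 reads, against 0 and 0, and Ctse, a gastric cathepsin, had 523 and 538 reads, against 0 and 0. All 4 were absent from the counts of DMSO 1 and 2, with bounds of at least 481-fold, 784-fold, 454-fold and 252-fold. Lgals2 had 50.4 and 43.7 CPM, against 0.277 and 0.726 CPM. The 2 lower members were Gpa33, an intestinal surface glycoprotein, at 100.1 and 96.4 CPM, against 376 and 390 CPM, and Espn, a brush-border actin bundler, at 1.97 and 1.87 CPM, against 9.70 and 12.6 CPM.

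Secreted products of gut, liver and pancreas were fewer. Of 75 listed 44 had no read in any library and 13 were tested, of which 11 were higher in DMSO 3 and 4 and 2 did not pass. Rbp4, the plasma carrier of retinol, had 2281 and 2502 reads in DMSO 3 and 4, against 0 and 0 in DMSO 1 and 2, at least 1136-fold higher. Itih2, a liver-made inhibitor chain that binds hyaluronan, had 474 and 522 reads, against 0 and 0. Muc5b, a gel-forming mucin, had 249 and 219 reads, against 0 and 0, and Try5, a trypsin, had 120 and 119 reads, against 0 and 0. None of these 4 had a read in DMSO 1 and 2. Apob, the lipoprotein scaffold, had 18.7 and 23.8 CPM, against 0.166 and 0.303 CPM. Alb, serum albumin, stood at 26 and 24 reads, against 0 and 0, and Ttr, Apoa2, Fga, Ins1, Ins2 and Reg1, products of mature liver and pancreas, had no read in any of the 4 libraries. Some products of these tissues thus had reads in DMSO 3 and 4 and others had none in any library. Leaving out DMSO 2 gave 1 lower member where there was none. Of the 11 higher products 9 had a promoter entry. The HNF4 core was held by 2 of them (Alb and Hpx) and the nuclear receptor motif by 2 (Hpx and Cela1). Over the tested protein-coding genes with an entry the shares were 3.87 and 12.8%. Rbp4, Itih2 and Apob held neither motif.

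Mammary products did not mirror this. Of 36 autosomal members 16 were tested, with 10 higher in DMSO 3 and 4, 5 lower and 1 not passing. The milk genes Csn2, Csn1s2a and Lalba had no read in any library, and Wap had 0 and 0 reads in DMSO 3 and 4, against 4 and 0 in DMSO 1 and 2. Csn3, kappa casein, was the only casein tested, at 3.95 and 3.35 CPM, against 10.6 and 10.6 CPM (log2 fold change -1.55). Erbb3, a receptor of the epidermal growth factor family, had 17.97 and 15.1 CPM in DMSO 3 and 4, against 127 and 114 CPM (log2 fold change -2.87, SE 0.09, adjusted p = 1.4e-14). Btn1a1, a milk fat globule protein, and Xdh, which binds it there, were lower by 2.64 and 0.69 on the log2 scale. The 4 largest rises were genes that mammary glands share with other tissues. Ly6a, a stem cell surface antigen, had 709 and 713 reads in DMSO 3 and 4, against 0 and 0. Ltf, lactoferrin, had 160 and 172 reads, against 0 and 1, Wnt4 had 140 and 161, against 0 and 1, and Aldh1a3, which makes retinoic acid, had 387 and 428, against 5 and 3. Erbb2 did not pass, with 75.2 and 72.6 CPM, against 77.2 and 74.1 CPM.

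**Figure D4:**
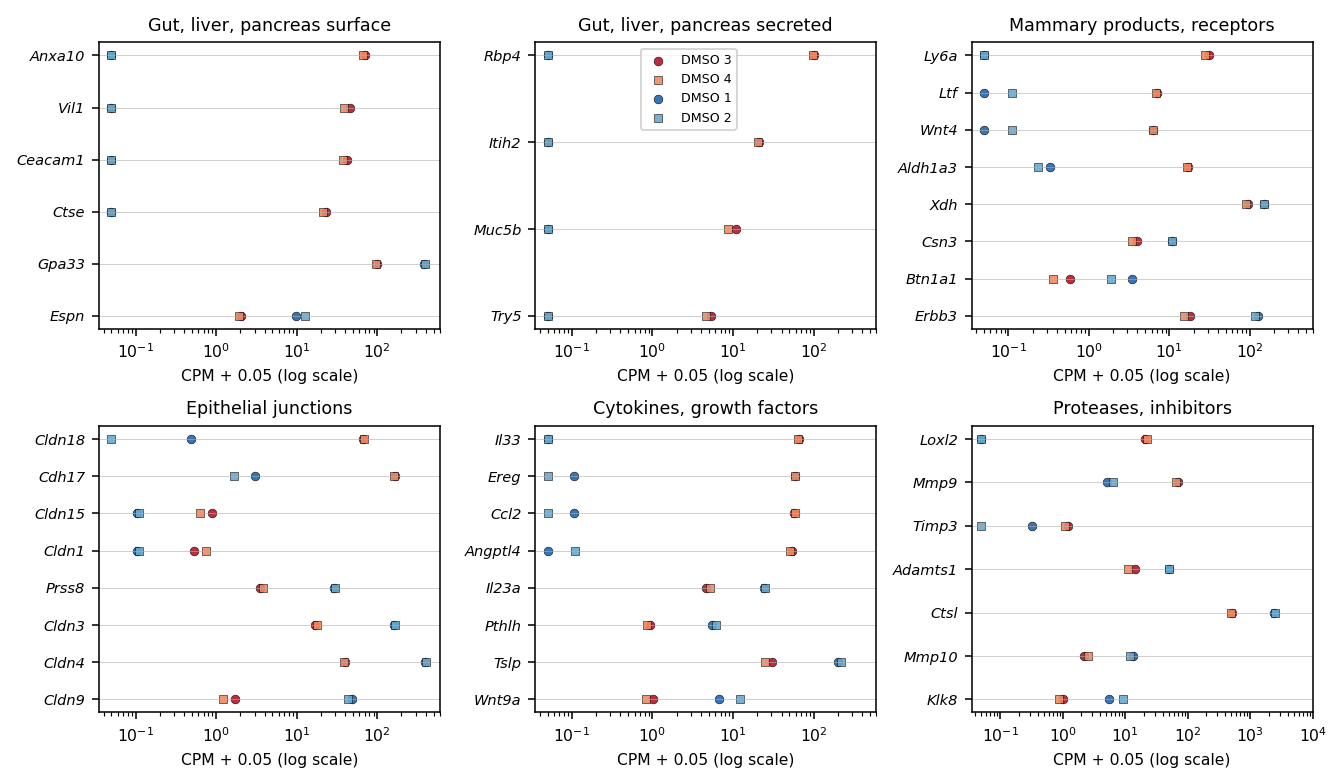
CPM + 0.05 (log scale) of genes from the top 4 called higher and the top 4 called lower by fold change in each of 6 lists, in DMSO 3, 4, 1 and 2. The gut, liver and pancreas products Rbp4, Itih2, Muc5b and Try5 have points at 0 CPM for DMSO 1 and 2, while in the junction panel Cldn4 stands at 39.5 and 38.4 CPM in DMSO 3 and 4, against 390 and 399 CPM.

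Of cytokines and growth factors, 37 of 66 tested were higher in DMSO 3 and 4, 21 lower and 8 did not pass (median log2 fold change 0.61), beside 40.0% higher and 34.0% lower over all genes, to which the lower count is close. Il33, an alarmin, had 1504 and 1638 reads in DMSO 3 and 4, against 0 and 0 in DMSO 1 and 2. Ccl2, a monocyte attractant, had 1293 and 1512 reads, against 1 and 0, a ratio of 1999 with a counting interval of 358 to 78967. Ereg, a ligand of the epidermal growth factor receptor, had 1324 and 1516 reads, against 1 and 0, and Angptl4, a lipase inhibitor, had 1231 and 1316 reads, against 0 and 1. These 4 were at or near 0 in DMSO 1 and 2. The neutrophil attractant Cxcl5, named after its values were seen, was the most abundant of the higher cytokines, at 1597 and 1588 CPM, against 29.0 and 30.0 CPM (log2 fold change 5.76, SE 0.06, adjusted p = 7.0e-20). Lower in DMSO 3 and 4 was Tslp, an epithelial cytokine that acts on dendritic cells, with 30.0 and 24.5 CPM, against 201 and 220 CPM (log2 fold change -2.95). Wnt9a, Pthlh and Il23a were lower by 3.42, 2.75 and 2.34 on the log2 scale. Spp1, or osteopontin, was high in all libraries and moved by -0.48.

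Proteases, their inhibitors and matrix regulators had 10 of 31 tested members higher in DMSO 3 and 4, 18 lower and 3 not passing, beside 40.0% higher and 34.0% lower over all genes (median log2 fold change -0.24, against 0.07). Mmp9, a gelatinase, had 70.2 and 64.7 CPM in DMSO 3 and 4, against 5.10 and 6.41 CPM in DMSO 1 and 2 (log2 fold change 3.55, SE 0.11, adjusted p = 3.2e-14). Loxl2, a collagen cross-linking oxidase, had 465 and 578 reads, against 0 and 0. Ctsl, a lysosomal protease that is also secreted, ran the other way, with 516 and 493 CPM, against 2405 and 2457 CPM (log2 fold change -2.27, SE 0.05). Klk8, Mmp10 and Adamts1 were lower by 3.05, 2.43 and 1.97 on the log2 scale.

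Among 40 tested oncogenes and tumour suppressors 24 were higher in DMSO 3 and 4, 11 lower and 5 did not pass, beside 40.0% higher and 34.0% lower over all genes (median log2 fold change 0.24, against 0.07). Cdkn2a, which encodes a pair of cell-cycle inhibitors, had 2064 and 2145 reads in DMSO 3 and 4, against 0 and 0 in DMSO 1 and 2, and its neighbour Cdkn2b had 824 and 870 reads, against 0 and 0. Mtap, a methionine salvage enzyme on the same stretch of chromosome 4 (89137122 to 89181081, with Cdkn2a at 89274471 to 89294653 and Cdkn2b at 89306299 to 89311039, GRCm38), had 7923 and 8938 reads, against 20758 and 19191. The counts of the 3 neighbours thus ran in opposite directions, with no read of Cdkn2a and Cdkn2b and abundant Mtap in DMSO 1 and 2 (Mtap log2 fold change -1.73, SE 0.05). A loss of DNA and a loss of transcription cannot be told apart from counts. Fgfr2, a receptor of epithelial growth signals, had 48.0 and 50.5 CPM, against 142 and 140 CPM, and Fgfr3 was lower by 1.67 on the log2 scale. Mycn and Pik3cg had 33 and 31, and 26 and 17 reads in DMSO 3 and 4, against none.

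Markers of cell types other than epithelium had reads in both pairs, in each list mostly from a few genes, and several defining markers were at or near 0. Summed over 28 haematopoietic markers the CPM was 8.07 and 9.53 in DMSO 3 and 4, against 12.2 and 14.2 in DMSO 1 and 2, with 11 markers without a read. Ptprc, which marks all leukocytes, had 7 and 10 reads, against 4 and 2, and Cd68, a macrophage lysosomal protein found in other cells too, was the most abundant. Over 14 endothelial markers the sum was 75.003 and 72.6 CPM, against 42.8 and 41.5, mostly Flt1 (69.6 and 67.4 CPM, against 35.4 and 35.8), while Cdh5, a defining marker, had 0 and 3 reads, against 0 and 0. Over 20 neural and melanocyte markers it was 161 and 146 CPM, against 231 and 233, with Nes the most abundant in each pair, and over 15 muscle markers 65.5 and 63.1, against 107 and 113, led by Tnnt2, with Myod1 and Myog at 0 in all. The 19 pluripotency and germ cell markers summed to 1.84 and 2.33 CPM, against 0.776 and 0.666, and Pou5f1 had no read. In these lists 3, 6, 8, 4 and 1 members were tested, and 1, 4, 2, 2 and 1 were higher and 1, 1, 5, 2 and 0 lower in DMSO 3 and 4. Leaving out DMSO 3 moved the endothelial count of higher genes to 2 and leaving out DMSO 2 the haematopoietic one to 2. Leaving out DMSO 3 or DMSO 4 moved the muscle counts to 1 higher and 1 lower and the pluripotency count to 0, and DMSO 3, DMSO 4 or DMSO 1 the neural count of lower genes to 3. Without DMSO 1 the muscle count of lower genes was also 1. Their part in the differences above was not tested.

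The most abundant named genes present only in DMSO 3 and 4 were Vnn1, a pantetheinase of gut and liver, with 7238 and 8423 reads in DMSO 3 and 4, against 0 and 0 in DMSO 1 and 2, and Clca3b, a gene of the chloride channel accessory family, with 7250 and 8043 reads, against 0 and 0. They were followed by Onecut2, by Igfbp3, a carrier of insulin-like growth factors, with 4995 and 5664 reads, against 0 and 0, and by Sprr1a, a cornified envelope protein, with 5056 and 5567 reads, against 0 and 0. Hnf4a came next, and then Mrc1, Bicc1, Myrf and Nrn1, a mannose receptor, an RNA-binding protein, a myelin regulatory factor and a neuritin, at means of 176, 174, 167 and 149 CPM. This leading set therefore mixed gut and liver genes with genes named for other tissues. Other factors without a read in DMSO 1 and 2, picked after their values were seen, belonged to kidney and fat: Pax2 had 1491 and 1761 reads in DMSO 3 and 4, and Pparg 1288 and 1528. In the other direction the most abundant named genes with at most 3 reads in DMSO 3 and 4 were the histone gene Hist1h2ap, with 0 and 0 reads in DMSO 3 and 4, against 37 and 74, and Pnp2, a purine phosphorylase, with 1 and 2 reads, against 20 and 38. Hes7, a factor of the somite clock, had 0 and 1 reads, against 18 and 13.

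Among genes with at least 10 reads in all 4 libraries the largest rises in DMSO 3 and 4 were Sema3c, a secreted semaphorin, at 293 and 293 CPM, against 0.720 and 0.968 CPM (log2 fold change 8.44, SE 0.11), and Nid1, a basement membrane glycoprotein, at 382 and 382 CPM, against 1.11 and 1.09 CPM (log2 fold change 8.43, SE 0.10). Mlph, Anxa8 and Aldh3a1, a melanosome linker, an annexin and an aldehyde dehydrogenase, followed at 7.76, 7.502 and 6.98. The 10 genes with the largest rises had 12 to 67 reads in DMSO 1 and 2, so their folds rest on few reads in the lower pair. Among the 10 largest falls, after Cldn9, were Fam177a (-4.74), Snx22, a sorting nexin (-4.35), and Fgfbp1, a carrier of fibroblast growth factors, with 5.52 and 5.41 CPM, against 114 and 104 CPM (log2 fold change -4.31, SE 0.09).

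The tables of the pairs also differed in form, and the counting settings of neither pair are given in the sources used here. DMSO 3 and 4 carried HTSeq summary lines and DMSO 1 and 2 did not, so the records lost in counting are known for DMSO 3 and 4 alone. Of all records in DMSO 3 and 4, 26.7 and 20.02% were not aligned, 10.4 and 11.4% were aligned to several places, 6.46 and 7.29% fell in no feature and 2.26 and 2.44% were ambiguous. Autosomal genes with at least 1 read numbered 18546 and 18746 in DMSO 3 and 4, against 15229 and 14978 in DMSO 1 and 2. At the depth of the shallowest library, 17.2 M reads, the expected numbers were 18127 and 18119, against 15133 and 14978, so the gap was present at equal depth. Of autosomal protein-coding genes 14272 and 14241 were expected at that depth, against 12550 and 12521.

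Processed pseudogenes were the annotated class that differed most. They took 0.940 and 0.909% of gene reads in DMSO 3 and 4, against 0.538 and 0.541% in DMSO 1 and 2. Of 577 tested, 475 were higher and 35 lower in DMSO 3 and 4, with a median log2 fold change of 4.18, against 0.02 for 11971 protein-coding genes. By the rule above 163 processed pseudogenes were present only in DMSO 3 and 4. Such genes enter the test through that pair, so the counts and the median describe the class. The 22 tested miRNA genes had a median of 2.17, and 279 antisense genes one of 0.28. The excess of detected genes in DMSO 3 and 4 thus included a class whose reads are hard to assign.

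A pseudogene and its parent could move in opposite directions. Rpl34-ps1, a processed copy of a ribosomal protein gene on chromosome 6, had 4953 and 4772 reads in DMSO 3 and 4, against 2 and 2 in DMSO 1 and 2. Its parent Rpl34 (chromosome 3) had 2256 and 2498 reads, against 11212 and 11337, and fell by 2.74 on the log2 scale (SE 0.06, adjusted p = 1.4e-16). In DMSO 3 and 4 the copy therefore held more reads than the parent. Rpl14-ps1 had 2830 and 3221 reads in DMSO 3 and 4, against 38 and 34, while Rpl14 was lower by 1.31 on the log2 scale. Pcna-ps2 had 1283 and 1348 reads, against 0 and 1, yet its parent Pcna, the replication clamp, was higher by 1.11, so a higher copy did not always go with a lower parent. Rps6-ps1 ran the other way, with 229 and 310 reads in DMSO 3 and 4, against 1596 and 1615. These pseudogenes were named after their values were seen.

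Symbol-matched processed pseudogenes reached at least 5 CPM in a library in 49 gene families. Their summed level was higher in DMSO 3 and 4 in 45 of these. The parent was lower in 37 and higher in 11, beside 34.0% lower and 40.0% higher over all autosomal genes tested. Most families were of ribosomal protein genes, whose parents were all lower, and the other parents went both ways. The median share of a family's CPM that lay on pseudogenes was 6.58% in DMSO 3 and 4, against 0.359% in DMSO 1 and 2. A family could enter through DMSO 3 and 4 alone, as Bnip3l did (pseudogene at 8.72 and 6.88 CPM, against 0 and 0). These counts and shares therefore describe the families and test nothing. Ribosomal protein genes took 4.37 and 4.18% of reads in DMSO 3 and 4, against 6.93 and 7.32%, and 71 of 77 autosomal members tested were lower, 4 higher and 2 did not pass (median log2 fold change -0.91). Rpl34, Rpl23a, Rpl35a and Rpl30 fell most, by 2.74, 2.35, 2.07 and 2.00 on the log2 scale, while Rpl26 and Rpl8 were higher by 1.16 and 0.47, and Rpl3l, a muscle paralogue, had no read in DMSO 1 and 2. Their near-identical copies make single values in this family uncertain. The share of reads on genes of the mitochondrial genome was 1.94 and 2.04% in DMSO 3 and 4, against 3.92 and 4.13%.

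Gapdh, a glycolytic enzyme with many pseudogene copies and a common reference gene, was among the 10 largest falls. It had 2490 and 2639 reads in DMSO 3 and 4, or 109 and 103 CPM, against 29293 and 26765 reads, or 1623 and 1620 CPM, in DMSO 1 and 2 (log2 fold change -3.94, SE 0.06, adjusted p = 1.5e-18). The glycolytic genes Ldha and Pkm did not follow it, at log2 fold changes of 1.22 and 0.17, and Actb, another common reference gene, was higher in DMSO 3 and 4 by 0.86. A ratio to Gapdh and a ratio to Actb would thus differ between the pairs in opposite directions. Whether the Gapdh value comes from transcription or from reads given to its copies was not tested.

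By properties of the gene model, signed medians over protein-coding genes lay near 0 in most classes, while the sizes of the differences were larger in short and 1-exon genes. Median log2 fold changes ran from -0.06 for exon lengths above 8000 bases to 0.46 for the 16 genes up to 500 bases, and from -0.01 for genes with over 20 exons to 0.37 for the 280 genes with 1 exon. The median absolute log2 fold change was 2.70 for exon lengths up to 500 bases and 0.50 above 8000 bases, and 0.89 for genes with 1 exon and 0.54 for those with over 20. Genes that overlap another on the same strand had a median of -0.05, against 0.03 for those that do not, and with overlap on the opposite strand the values were -0.03 and 0.05. By chromosome, the medians ran from -0.32 on chromosome 4, which carries Cdkn2a and Mtap, to 0.52 on chromosome 15, which carries Krt8, Krt18 and Ly6a. Hnf4a, Cdx2, Pdx1 and Hhex had 827 to 5464 reads per library in DMSO 3 and 4 and none in DMSO 1 and 2, and the part of read counting in those values was not tested.

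**Figure D5:**
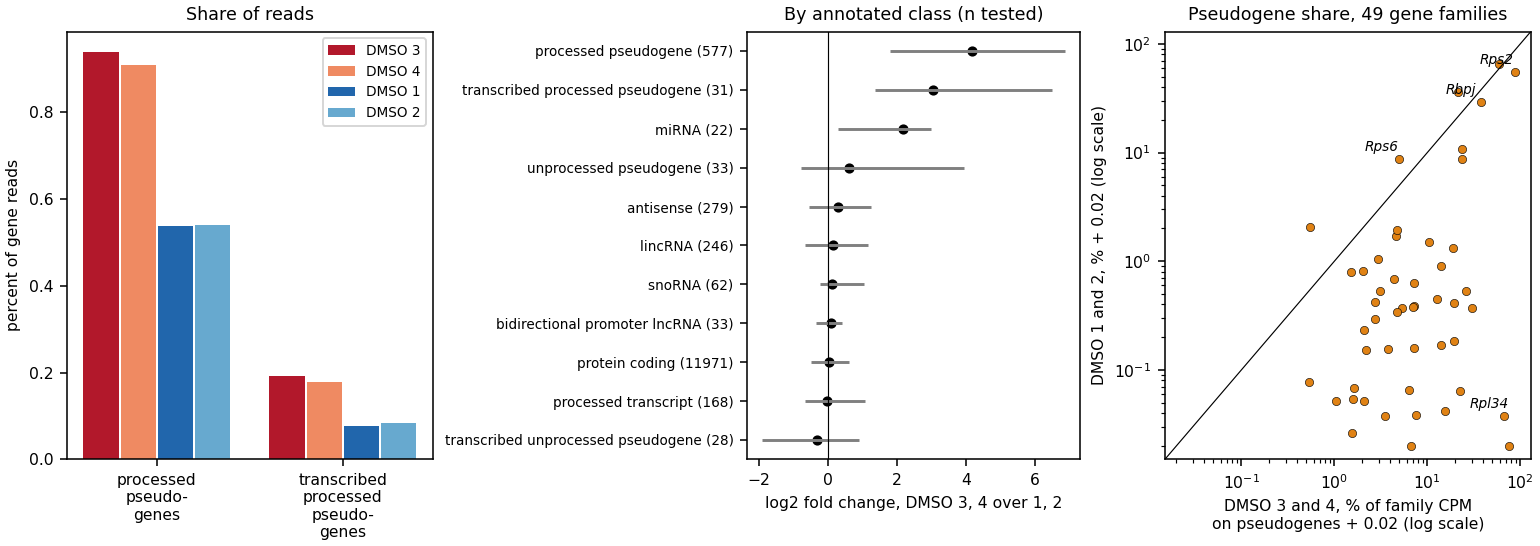
Left, percent of gene reads on processed pseudogenes and transcribed processed pseudogenes in DMSO 3, 4, 1 and 2 (bars from 0). Middle, median (point) and interquartile range (line) of log2 fold changes by annotated class, highest for processed pseudogenes at 4.18, and right, share of each of 49 families' CPM on pseudogenes, as percent + 0.02 on log scales, in DMSO 3 and 4 (x axis) and DMSO 1 and 2 (y axis), with 45 families under the line of equal share.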

How the data were processed

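RNA of 12 libraries labelled 4T1 was given as raw read counts per gene, made and deposited by the authors, 1 table per library; the 4 DMSO tables were compared here. Per the submitters' processing notes, the tools were HTSeq, TopHat, Bowtie, DESeq2 and FastQC 0.11.3, and mm10 was among the builds. No source used here gives the other versions, the annotation, the counting strand or the order of steps. Every count was a whole number. The HTSeq summary lines of DMSO 3 and 4 were dropped. Of 38924 gene IDs 37607 matched GENCODE M21 (GRCm38, the assembly of mm10) with ID versions ignored, and IDs without a match, 0.285 to 0.294% of reads, had no chromosome and entered the fit without being reported. MDA-MB-231 tables were not used here.

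Counts were filtered with filterByExpr, scaled by TMM (factors 0.963 to 1.04) and tested with edgeR 4.0.16 under R 4.3.3 (quasi-likelihood, 2 libraries against 2, 14115 genes fitted and adjusted together by Benjamini-Hochberg, threshold 0.05). The common biological coefficient of variation was 0.0481. The fit was tested on simulated counts for these libraries: among 13873 genes it recovered 97 of 100 genes changed by 1 and 100 of 100 changed by 2 on the log2 scale. In the simulation few genes changed, as many up as down, all well covered and at a fixed dispersion. In the data 74.0% of autosomal genes tested were called, so the simulation cannot show how scaling and fit behave at that extent. The SE was taken as the absolute log2 fold change divided by the root of F. CPM used TMM-scaled library sizes. A fold against a pair without reads is a bound from 3 reads over that pair, and with 1 to 3 reads a ratio with its exact binomial 95% interval; both cover counting error only, since reads without molecular identifiers are not independent molecules. The floor of 3 reads was 0.117 to 0.182 CPM per library.

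Gene lists, members and tests were chosen with earlier results of these data known. Any detected endoderm or mammary factor, keratin or Hox gene could be named. Of other lists the 4 largest rises and 4 largest falls past the threshold were named, and of all autosomal genes the 10 largest rises and falls with at least 10 reads in each library and the 10 most abundant with at most 3 reads in the other pair, without Gm and Rik symbols. Members named for level, absence or contrast outside this rule (such as Vim, Apob, Lgals2, Erbb2, Spp1, Twist1, Zeb2, Actb, Ldha, Pkm and the milk genes) were chosen after their values were seen. Alternatives were DESeq2 1.42.0, its size factors, total-count scaling, 2 filters, all 12 libraries, autosomal or named genes only, and leaving out each library. Results of some list members and of another promoter motif are not reported here.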

Additional observations from a re-analysis of the deposited data

Results flagged for a closer look

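Signals of the endoderm markers were found in libraries that the comparison did not use, above the level in DMSO 1 and 2, where each marker had 0 reads. As CPM of total reads, the lowest value over the 4 TAK901 libraries labelled 4T1 was 249 for Hnf4a, 49.8 for Cdx2, 47.1 for Pdx1 and 54.5 for Hhex. In DMSO 3 and 4 on the same scale the lowest values were 220 for Hnf4a, 39.8 for Cdx2, 39.8 for Pdx1 and 37.4 for Hhex. In the 4 ENMD-2076 libraries Hnf4a, Cdx2 and Pdx1 had no read, and Hhex had 2.996 and 3.19 CPM at 2.5 µM. Groups of 2 libraries are too small to look for a library that stands apart.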

How the results depend on the processing

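No paired analysis was possible because the pairs carry the numbers 3 and 4, and 1 and 2, and share none. Of 594 gene counts recomputed under alternatives, 554 kept their size within 1.5 times and 40 moved beyond it. A count has no direction, so these values could not show a reversal. Leaving out 1 library, where the lone library is assumed to vary like the other pair, gave ranges of 0 to 1 for lower gut and liver products, 1 to 2 for higher haematopoietic, 2 to 4 for higher endothelial and 3 to 5 for lower neural markers. The ranges were 1 to 2 for higher and 1 to 2 for lower muscle markers, 0 to 1 for higher pluripotency genes, 2 to 6 for higher and 0 to 1 for lower replication histones, and 13 to 25 for genes with almost no reads in DMSO 3 and 4. Higher haematopoietic markers numbered 2 with total-count scaling, 6 with no filter, 0 with the stricter filter, 3 with all 12 libraries and 2 without unnamed symbols. With the stricter filter higher endothelial, neural and muscle markers numbered 1, 1 and 1 and higher keratins 9. With DESeq2 there were 1 higher and 1 lower muscle marker and 2 higher histones. Lower muscle markers numbered 1 with total-count scaling, 1 with all 12 libraries and 1 at an adjusted p under 0.01, and lower endothelial markers 2 with all 12 libraries. With no filter 1 Hox gene was higher. Genes with almost no reads in DMSO 3 and 4 numbered 3 when no read was allowed, 1 at 5 CPM and 5 among protein-coding genes, and those with almost no reads in DMSO 1 and 2 numbered 270 at 5 CPM. Apart from fewer libraries or genes entering a fit, the cause was not tested. With 2 libraries a pair, naming set and group cannot be told apart, and genes under the floor of 3 reads are not detectable at this depth. Histone genes numbered 8 tested of 29, with 4 higher and 4 not passing.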
